A study of Homo sapiens with 26 samples.

Results

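CD58 and 9 other genes that encode surface ligands of the immune synapse were followed in 26 drug naïve human B-cell cancer cell lines. The 10 genes were CD58, CD48, CD80, CD86, ICOSLG, CD70, TNFRSF14, CD274, PDCD1LG2 and CD47. Every probe-set annotated to one of them alone was taken, which gave 31 of the 54613 probe-sets and 10 of the 19775 genes with a probe-set of their own. Total RNA of untreated cultures was hybridised to the Affymetrix HG-U133 Plus 2.0 array, 1 array per cell line, and expression is given on the log2 scale of the robust multi-array average (RMA). The multiple myeloma (MM) group held 12 cell lines, 1 of them the plasmacytoma line AMO-1. The diffuse large B-cell lymphoma (DLBCL) group held 14 cell lines, 1 of them the undifferentiated lymphoma line MC-116. Each cell line is represented by 1 culture grown without immune cells, so a cell line is the replicate here and p-values measure the spread between cell lines.

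Cell lines had been exposed to cyclophosphamide (C, given as mafosfamide), doxorubicin (H) and vincristine (O) in separate cultures, and the response was summarised as AUC0, the positive part of the area beneath a line's dose response curve. A higher AUC0 means a more resistant line. Within each disease, lines were classed as resistant, intermediate or sensitive by tertiles of AUC0. C and O were tested in 12 MM and 12 DLBCL lines each, and H in all 26.

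The marker lists fitted the disease labels. All 5 plasma cell markers measured were higher in MM lines and all 4 B-cell markers measured were lower, while none of the T-cell, NK-cell, myeloid or stromal markers differed between the diseases by the same test. By this test 5.64% of all probe-sets were higher and 5.87% were lower in MM lines. Array medians ranged between 5.65 and 5.71. To show what an unexpressed gene reads on these arrays, 33 probe-sets of 16 tissue-restricted genes were collected, and their 95th percentile in a line, between 6.66 and 7.36, was used as a rough bound. Probe-sets differ in affinity, so a value below the bound is called dim and not absent. In a pool of cells, fewer cells with a transcript and less transcript per cell cannot be told apart.

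T cells and natural killer cells read a target cell through pairs of surface proteins. CD58 (LFA-3) binds CD2 on T and NK cells and tightens the contact, and loss of CD58 is a known route by which lymphoma cells escape these cells. CD80 and CD86 give costimulation through CD28 and inhibition through CTLA4, CD274 (PD-L1) and PDCD1LG2 (PD-L2) inhibit T cells through PDCD1, and CD47 holds back phagocytosis through SIRPA on macrophages.

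CD58 was dim in 0 of the 12 MM lines and in 5 of the 14 DLBCL lines. In MM lines it had a lowest value of 9.14 (KMS-11), a median of 9.97 and a highest value of 11.32 (U-266). It stood between percentiles 88.8 and 97.6 of the array in each MM line. The standard deviation was 0.78 in MM lines and 3.18 in DLBCL lines, where 32 of 54613 probe-sets varied more.

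Among the 14 DLBCL lines CD58 was 3.29 in HBL-1, 3.33 in OCI-Ly3, 3.41 in OCI-Ly7 and 3.47 in SU-DHL-4, which placed the gene between percentiles 5.8 and 8.4 of all probe-sets on those arrays. DB followed at 6.05, above the median of the negative list but below the bound. A gap of 2.58 on the log2 scale, the widest in the DLBCL group, separated SU-DHL-4 and DB, with 4 lines below it and 10 above. The other 9 DLBCL lines had 7.46 in SU-DHL-5, 7.68 in RIVA, 8.92 in NU-DHL-1, 9.24 in NU-DUL-1, 9.25 in U2932, 10.21 in MC-116, 10.88 in SU-DHL-8, 11.40 in OCI-Ly19 and 11.90 in FARAGE. The DLBCL group therefore held both the lowest and the highest CD58 values of the panel. The 5 dim lines were the same with the 90th, 95th or 99th percentile of the negative list as the bound.

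**Figure D1:**
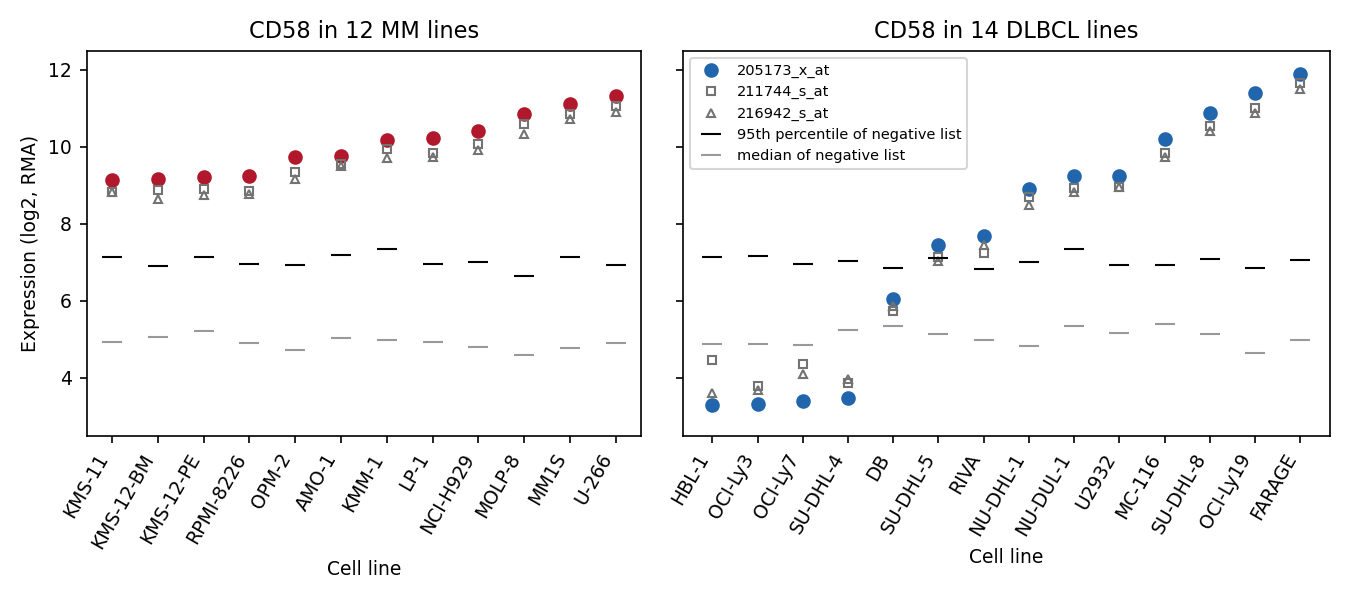
CD58 expression (log2, RMA) in each cell line, MM lines at the left and DLBCL lines at the right, as read by 3 probe-sets, with the median and the 95th percentile of the negative list in each line. On 205173_x_at no MM line lies below 9.14, and the DLBCL lines HBL-1, OCI-Ly3, OCI-Ly7 and SU-DHL-4 lie between 3.29 and 3.47.

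The low readings did not rest on 1 probe-set. Across the 26 lines 205173_x_at correlated with 211744_s_at (r = 0.995) and 216942_s_at (r = 0.998), and these read 4.47 and 3.60 in HBL-1, 3.80 and 3.68 in OCI-Ly3, 4.37 and 4.12 in OCI-Ly7, and 3.88 and 3.96 in SU-DHL-4. The count of dim DLBCL lines was less firm, with 5 on 211744_s_at and 6 on 216942_s_at at the 95th percentile, and 6 on each at the 99th. The remaining CD58 probe-sets, 216322_at and 222061_at, were dim on average (3.60 and 5.13) and followed the main one less closely (r = 0.727 and 0.598). Unless stated otherwise, each gene is described below by the probe-set of largest standard deviation over the DLBCL lines.

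The promoters of CD58 and of CD274 are shown because these genes were bright in some DLBCL lines and dim in others. Each window runs over the 250 bases before and the 50 bases after the annotated start (RefSeq, GRCh38.p14), and 8 of the 10 genes had such a window. The CD58 window is chr1:116570977-116571276, minus strand, with CpG dinucleotides in capitals. The CD274 window is chr9:5450292-5450591, plus strand, with capitals marking matches on the minus strand to the core of the interferon-stimulated response element, searched on both strands as GAAA, 2 bases of any kind and GAAA.
CD58: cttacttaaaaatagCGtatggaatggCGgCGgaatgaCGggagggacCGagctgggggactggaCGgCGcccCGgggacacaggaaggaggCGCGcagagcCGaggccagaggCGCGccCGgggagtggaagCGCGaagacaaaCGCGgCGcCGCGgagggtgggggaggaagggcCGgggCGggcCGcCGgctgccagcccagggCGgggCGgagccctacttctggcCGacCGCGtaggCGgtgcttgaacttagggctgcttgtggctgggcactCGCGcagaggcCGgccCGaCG
CD274: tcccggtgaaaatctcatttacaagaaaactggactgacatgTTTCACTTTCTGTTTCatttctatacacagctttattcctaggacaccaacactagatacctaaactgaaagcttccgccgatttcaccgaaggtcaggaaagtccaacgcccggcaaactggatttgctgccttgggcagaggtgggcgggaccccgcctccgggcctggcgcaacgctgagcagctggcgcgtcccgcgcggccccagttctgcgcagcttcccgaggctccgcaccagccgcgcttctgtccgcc
The CD58 window held 36 CpG dinucleotides at a GC content of 71.7%, and 87.3% of 34796 promoters of the same length held fewer (median 14). The CD274 window held 22 CpG dinucleotides and 2 overlapping matches, and 3.57% of the promoters held the motif on either strand. The other members' windows held none of these matches, and their CpG counts were 45 for CD47, 42 for ICOSLG, 12 for TNFRSF14, 7 for CD80, 5 for CD48, and 3 and 4 for the windows of CD86. A match describes the letters only, and neither methylation nor binding was measured here.

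The genes beside CD58 on chromosome 1 were read in the same lines. Of 9 neighbours measured, TTF2, a transcription termination factor, was above the bound in every DLBCL line, with a lowest value of 7.69 (SU-DHL-4), a median of 9.15 and a highest value of 9.83 (HBL-1). Thus the line with the least CD58 had the most TTF2, and a line with nearly as little CD58 had the least. IGSF3 was lowest in OCI-Ly7 (4.82) and highest in OCI-Ly3 (7.28), both of them CD58-dim lines. Among DLBCL lines IGSF3 was above the bound in OCI-Ly3 alone, so the order of the other lines is one of dim values. CD2, the receptor of CD58, lies at the same locus and stayed below the bound in all 26 lines.

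CD48 is a second adhesion ligand of the same family and binds CD244 on NK cells. In MM lines it had a lowest value of 6.15 (KMS-12-BM), a median of 12.19 and a highest value of 13.69 (NCI-H929), against 8.60 (RIVA), 11.39 and 12.73 (DB) in DLBCL lines. KMS-12-BM was the only one of the 26 lines below the bound. The 4 lines with the least CD58 had CD48 at 10.37 (HBL-1), 10.99 (OCI-Ly3), 11.32 (OCI-Ly7) and 12.41 (SU-DHL-4), so none of them was dim in both. KMS-12-PE, established from the same patient as KMS-12-BM, read 11.45, a difference of 5.29 that 92 of 54613 probe-sets exceeded between these arrays. The lines' CD58 values were 9.16 in KMS-12-BM and 9.22 in KMS-12-PE. In 237759_at, the other CD48 probe-set, the lowest MM value was instead that of RPMI-8226 (5.48).

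Among the costimulatory ligands, CD80 was dim in all 12 MM lines, with a lowest value of 4.43 (NCI-H929), a median of 4.82 and a highest value of 5.21 (LP-1). In DLBCL lines CD80 had a lowest value of 4.84 (OCI-Ly7), a median of 6.68 and a highest value of 9.93 (FARAGE), and 7 of the 14 lines were above the bound. CD86 was above the bound in 2 MM lines, RPMI-8226 (9.70) and MM1S (7.99), and between 3.56 and 5.98 in the other 10. In DLBCL lines CD86 split into 4 lines between 4.56 and 5.57 (SU-DHL-8, NU-DUL-1, NU-DHL-1 and OCI-Ly19) and 10 lines between 8.65 and 10.49. All 4 lines with the least CD58 were among the CD86-high ones, at 9.47 (HBL-1), 9.55 (OCI-Ly3), 8.65 (OCI-Ly7) and 10.49 (SU-DHL-4). OCI-Ly7 was low in CD58 and lowest of all DLBCL lines in CD80.

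ICOSLG, the ligand of ICOS on T cells, ranged between 6.49 and 8.40 in MM lines and between 6.28 and 9.17 in DLBCL lines, close to the bound in most of them. CD70, the ligand of CD27, was above the bound in all 26 lines, with a lowest value of 8.31 (OPM-2), a median of 10.24 and a highest value of 11.89 (AMO-1) in MM lines, and 8.60 (NU-DUL-1), 10.35 and 11.48 (FARAGE) in DLBCL lines. TNFRSF14 (HVEM), which binds BTLA, CD160 and TNFSF14, had a lowest value of 6.16 (OPM-2), a median of 6.99 and a highest value of 8.78 (NCI-H929) in MM lines. Its DLBCL values had a lowest value of 5.91 (RIVA), a median of 6.80 and a highest value of 8.45 (FARAGE), and 6 MM and 9 DLBCL lines were at or below the bound.

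The inhibitory ligand CD274 was dim in all 12 MM lines (4.03 to 5.09). In DLBCL lines it was 8.42 in OCI-Ly3, 8.24 in HBL-1, 7.56 in FARAGE, 7.40 in MC-116 and 6.53 in RIVA, and at most 5.04 in the other 9. RIVA was below the bound, so 4 lines exceeded it. The lines with most CD274 thus included OCI-Ly3 and HBL-1, which had the least CD58, and FARAGE, which had the most. PDCD1LG2 was dim in all 26 lines, between 4.53 and 5.40. CD47 was above the bound in every line, with a lowest value of 7.22 (U-266), a median of 9.37 and a highest value of 10.08 (KMS-11) in MM lines, and 7.11 (SU-DHL-4), 9.05 and 10.52 (NU-DUL-1) in DLBCL lines.

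**Figure D2:**
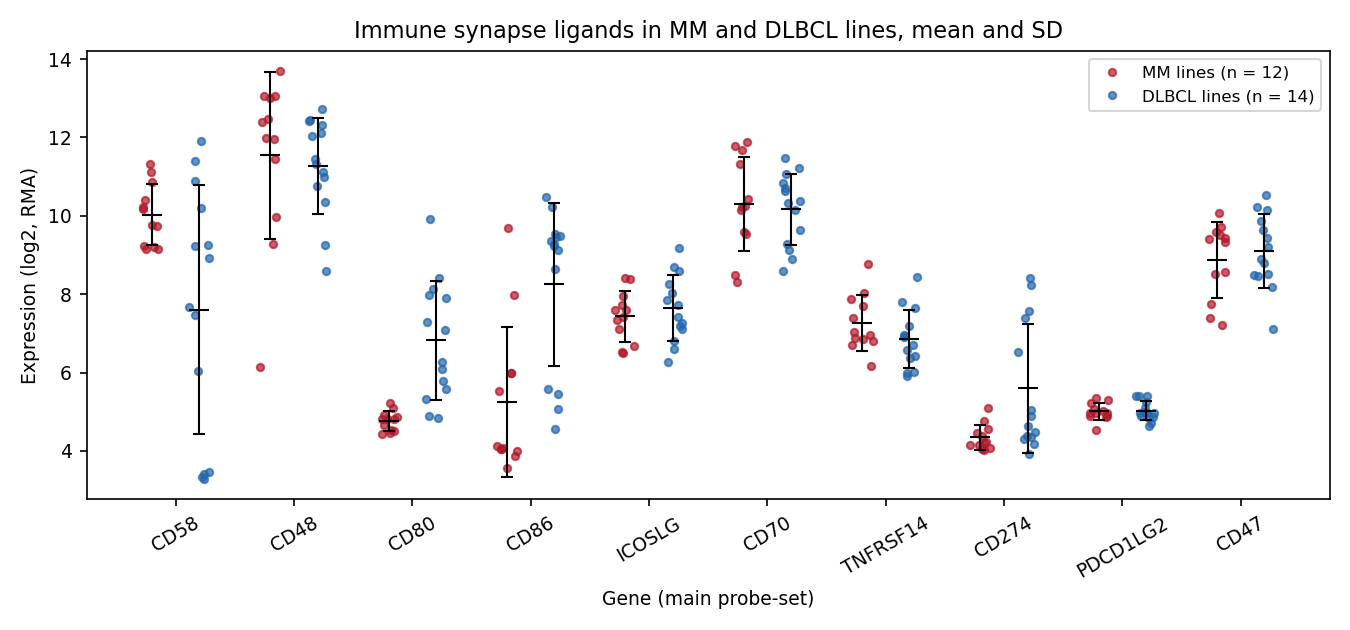
Expression (log2, RMA) of the 10 ligands in 12 MM and 14 DLBCL cell lines, with 1 point per line and the mean and SD of each group. The CD58 points spread over 2.18 on the log2 scale in MM lines against 8.61 in DLBCL lines, and CD80 is above 5.21 in DLBCL lines only.

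The comparison of MM with DLBCL lines asks which ligands differ between malignant plasma cells and malignant B cells. CD80 and CD86 were lower in MM lines by the test, although the values of the 2 diseases overlapped for both genes. No other ligand's main probe-set passed the test. CD80 averaged 4.76 ± 0.25 in MM lines (SD, n = 12) and 6.82 ± 1.52 in DLBCL lines (SD, n = 14), a difference of -2.06 (limma, SE 0.43, 95% CI -2.94 to -1.17, adjusted p = 0.00214). CD86 averaged 5.24 ± 1.91 in MM lines and 8.25 ± 2.09 in DLBCL lines, a difference of -3.01 (limma, SE 0.76, 95% CI -4.58 to -1.44, adjusted p = 0.0101). All 3 probe-sets of CD80 and all 3 of CD86 passed in the same direction.

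With 8 of the 31 member probe-sets called, all of them lower in MM lines, the share stood beside 11.5% of all 54613 probe-sets called in either direction, 5.64% called higher and 5.87% called lower. Of the 8, 6 were those of CD80 and CD86, which repeat 2 transcripts. Both of the remaining called probe-sets were of CD47, 213856_at (-0.45, adjusted p = 0.00163) and 242974_at (-0.82, adjusted p = 0.00771). The first was dim in all 26 lines, and the second in all 12 MM lines and 13 of the 14 DLBCL lines. The other 5 CD47 probe-sets, brighter on the array, did not pass, and the main one differed by -0.23 (SE 0.36, adjusted p = 0.730). CD47 is therefore not described as lower in MM lines.

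CD58 averaged 10.03 ± 0.78 in MM lines and 7.61 ± 3.18 in DLBCL lines. The difference of 2.42 (limma, SE 0.91, 95% CI 0.55 to 4.30) had an unadjusted p of 0.0132 and an adjusted p of 0.0856, and passed under none of the alternatives run except when FARAGE, the line with most CD58, was left out (2.76, adjusted p = 0.0431). The 2 other bright CD58 probe-sets gave 2.14 (adjusted p = 0.0831) and 2.12 (adjusted p = 0.0920). CD274 differed by -1.26 (SE 0.47, 95% CI -2.22 to -0.29, adjusted p = 0.0833). The intervals for the others included 0, with differences of 0.26 for CD48 (SE 0.65), 0.14 for CD70 (SE 0.40), 0.42 for TNFRSF14 (SE 0.28), -0.20 for ICOSLG (SE 0.29) and -0.02 for PDCD1LG2 (SE 0.09). The median difference of the 10 main probe-sets was -0.11, and that of all probe-sets was -0.02.

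Related molecules were counted by the same test, taking 1 probe-set per gene. Beside these counts stand the 11.5% of all probe-sets called in either direction, 5.64% higher and 5.87% lower. The lists are short, so the counts are not read as results about a list. Of 8 genes of the adhesion and SLAM family measured, 1 was higher and 2 were lower in MM lines (median difference -0.31). SLAMF7, a surface receptor of plasma cells and NK cells, averaged 9.92 in MM lines and 6.55 in DLBCL lines (limma, difference 3.37, adjusted p = 0.0399). CD84 (-2.92, adjusted p = 0.000183) and SLAMF6 (-1.85, adjusted p = 0.00514) were lower. Of 8 other costimulatory and TNF superfamily genes, 2 were lower and 0 were higher, CD40 by -2.21 (adjusted p = 0.000231) and TNFSF8 by -2.44 (adjusted p = 0.0206). Of 9 ligands of NK-cell receptors 1 passed, ULBP2 at -0.85 (adjusted p = 0.00197), although it was below the bound in every line, as were 4 more of the 9, B2M among them, for which the rule for choosing a probe-set took a dim one. Of 4 other inhibitory genes 1 passed, VSIR at 0.88 (adjusted p = 0.00873).

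The receptors of the 10 ligands belong mainly to T and NK cells, and 6 of the 11 measured were below the bound in all 26 lines. Among the rest, CD28, the receptor of CD80 and CD86, averaged 9.38 in MM lines and 4.25 in DLBCL lines, a difference of 5.13 (limma, SE 0.76, adjusted p = 5.61e-05). CD27, the receptor of CD70, averaged 5.78 in MM lines and 8.62 in DLBCL lines, a difference of -2.84 (limma, SE 0.83, adjusted p = 0.0253). MM lines thus had more CD28 and less of its ligands, while CD70 did not pass the test.

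The combination of bright and dim ligands differed from line to line, as the map of all members by line shows. CD58 and the other 9 were correlated within each disease. In MM lines the highest correlation was with CD48 (r = 0.554, permutation p = 0.0542, adjusted over 18 pairs 0.244). Since CD58 fell into separate clusters in DLBCL lines, only the 10 DLBCL lines above the gap were used, a restriction taken after the values were seen. In these the highest correlations were with TNFRSF14 (r = 0.748, permutation p = 0.0134, adjusted 0.241) and CD80 (r = 0.659, permutation p = 0.0370, adjusted 0.244). Spearman's rho was 0.673 for TNFRSF14 and 0.782 for CD80 (permutation p = 0.0103, adjusted 0.185). Leaving out the 2 lines farthest from the median of CD58 gave r = 0.524 for TNFRSF14 and 0.770 for CD80. None of the 18 pairs passed after adjustment. The restriction moved several values. Over all 14 DLBCL lines, given without a test because of the clusters, r was 0.546 for TNFRSF14 and 0.473 for CD80. For CD47 r was 0.116 in the 10 lines and 0.51 in all 14, and for PDCD1LG2 it was 0.630 and 0.031. For CD274 it changed sign, with 0.387 in the 10 lines and -0.146 in all 14, and for CD86 it was -0.318 and -0.493.

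**Figure D3:**
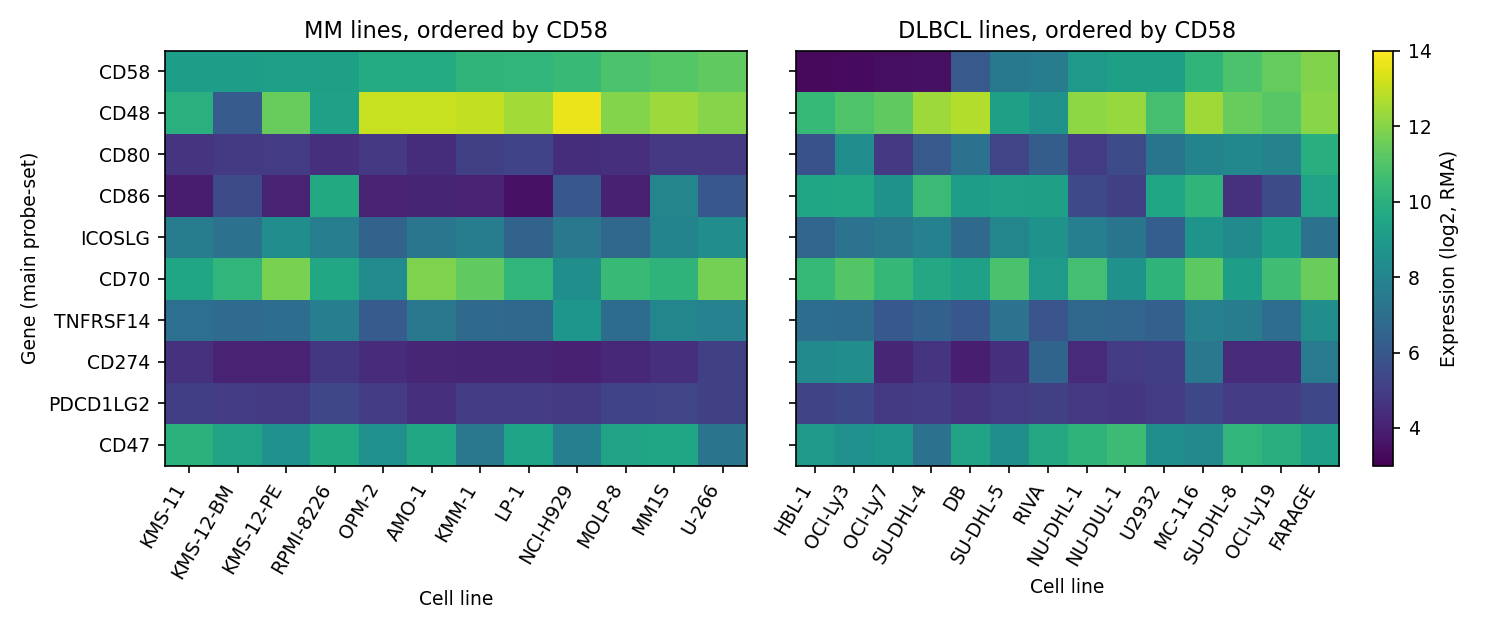
Expression (log2, RMA) of the 10 ligands, 1 row per gene and 1 column per cell line, MM lines left of DLBCL lines and each ordered by CD58. HBL-1, OCI-Ly3, OCI-Ly7 and SU-DHL-4 combine the lowest CD58 with CD86 between 8.65 and 10.49 and CD48 between 10.37 and 12.41.

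A pair of patterns among the other ligands stood out in DLBCL lines and was noticed in the values. The 5 DLBCL lines with the highest CD274 also held the 5 highest PDCD1LG2 values of the group, 5.40 in OCI-Ly3, 5.25 in HBL-1, 5.39 in FARAGE, 5.39 in MC-116 and 5.10 in RIVA, next to 5.00 in OCI-Ly19. In MM lines, where CD274 was dim throughout, PDCD1LG2 ranged between 4.53 and 5.35. These genes are neighbours on chromosome 9, and PDCD1LG2 remained below the bound throughout, so its differences are small on this array. Of their neighbours, PLGRKT correlated with CD274 over the DLBCL lines at r = 0.53 and RIC1 at r = 0.48, described without a test because CD274 fell into separate clusters. The other pattern concerned CD47, a signal against phagocytosis. In MM lines CD47 was 9.70 in RPMI-8226 and 9.51 in MM1S, the CD86-high lines, and between 7.22 and 10.08 in the other 10, so the CD86-high lines lay within the range of the rest. The 4 CD86-low DLBCL lines held the 4 highest CD47 values, 10.14 in NU-DHL-1, 10.52 in NU-DUL-1, 9.88 in OCI-Ly19 and 10.24 in SU-DHL-8, next to 9.64 in RIVA. SU-DHL-4, highest in CD86, had the least CD47 (7.11). The brightest CD47 probe-sets, 211075_s_at and 213857_s_at, followed the main one less closely (r = 0.626 and 0.671 over the 26 lines). Among DLBCL lines both were highest in NU-DHL-1 and lowest in SU-DHL-4.

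**Figure D4:**
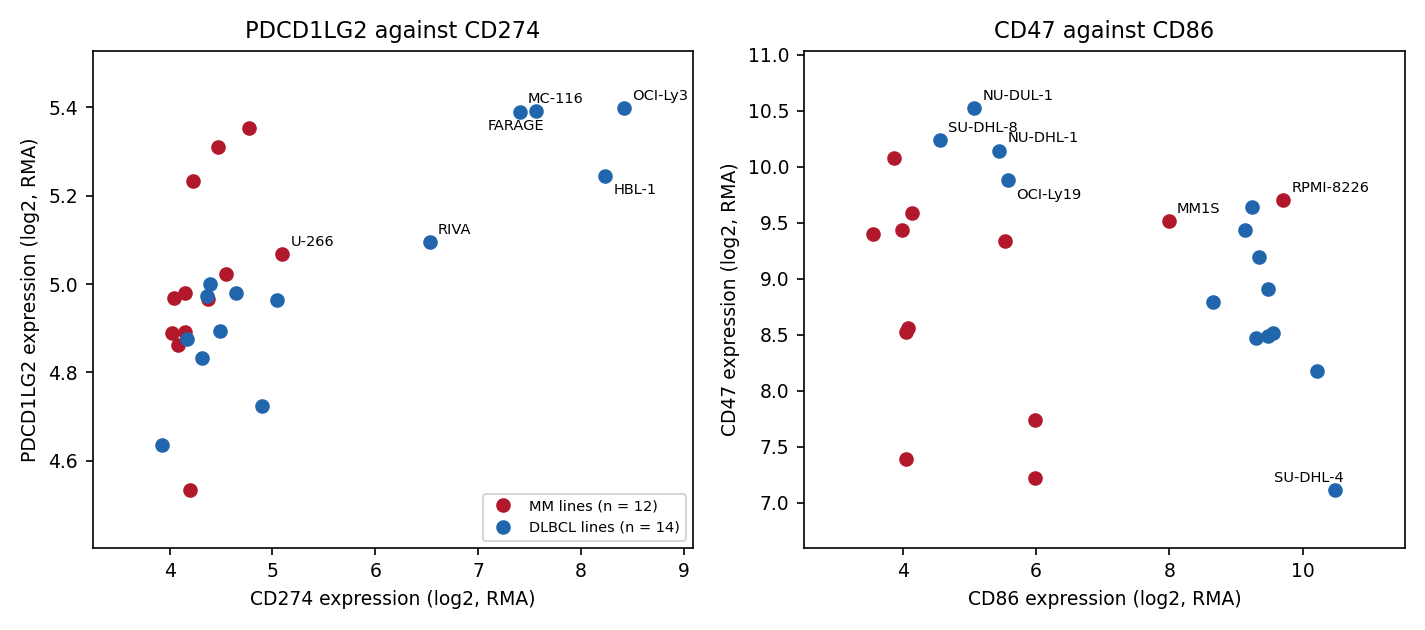
PDCD1LG2 against CD274 (left) and CD47 against CD86 (right), log2 RMA expression, 1 point per cell line, MM and DLBCL in separate colours. At the left the 5 DLBCL lines with CD274 between 6.53 and 8.42 carry the highest DLBCL values of PDCD1LG2, and at the right the 4 DLBCL lines with CD86 at most 5.57 carry the highest DLBCL values of CD47.

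Genes whose pattern was most like that of CD58 were listed by the correlation over all 26 lines after the mean of each disease had been subtracted. The highest were GAB3 (r = 0.687), ETHE1 (0.656), ACER2 (0.645), GBP3 (0.639) and MYB (0.638), and the lowest were HTR3A (-0.723), SIGLEC10 (-0.694) and DUSP18 (-0.678). Most of this likeness came from the DLBCL lines, where CD58 varied more, and for MYB the correlation was -0.261 in MM lines and 0.801 in DLBCL lines. HTR3A, a serotonin-gated channel, was 8.89 in HBL-1, 11.90 in OCI-Ly3, 5.50 in OCI-Ly7 and 10.52 in SU-DHL-4, so it was high in 3 of the 4 lines with least CD58. Among the ligands, CD80 (0.458) and TNFRSF14 (0.456) were most like CD58, with 163 and 166 of 19774 genes above them, and CD86 (-0.353) was least like it. With 26 points, 4 of which lie far below the rest, these values describe the panel only.

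Each drug was then considered within each disease, by the resistant and the sensitive class and by the slope of expression on AUC0. No member probe-set passed the adjusted threshold in any of the 18 comparisons made (limma), which comprised 6 of classes, 6 of slopes and 6 tests of whether these differed between MM and DLBCL. The study itself had chosen CD58 into its doxorubicin classifier from these same lines, so its relation to H is not independent evidence.

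For H the class comparisons called 0.00183% of all probe-sets in MM lines and 0.00366% in DLBCL lines. At an unadjusted p under 0.05, 6 of 31 member probe-sets passed in MM lines and 9 of 31 in DLBCL lines, beside 7.33% and 7.58% of all probe-sets. Of these, 5 in MM lines and 4 in DLBCL lines were probe-sets of CD58, which measure 1 transcript and are not independent. Among the H-resistant MM lines CD58 was 9.14 (KMS-11), 9.16 (KMS-12-BM), 9.22 (KMS-12-PE) and 10.18 (KMM-1), against 9.75 (AMO-1), 10.41 (NCI-H929), 10.86 (MOLP-8) and 11.11 (MM1S) in H-sensitive lines. Only KMM-1 of the resistant lines reached the range of the sensitive ones. The difference was -1.11 (limma, SE 0.35, 95% CI -1.93 to -0.29, unadjusted p = 0.0145, adjusted p = 0.546). The exact permutation p was 0.0571, where 0.0286 is the smallest possible. KMS-12-BM and KMS-12-PE share a patient of origin and are not wholly separate lines.

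Among the H-resistant DLBCL lines CD58 was 3.41 in OCI-Ly7, 3.47 in SU-DHL-4, 6.05 in DB, 7.68 in RIVA and 9.25 in U2932. Among the H-sensitive ones it was 7.46 in SU-DHL-5, 8.92 in NU-DHL-1, 10.88 in SU-DHL-8, 11.40 in OCI-Ly19 and 11.90 in FARAGE. The classes overlapped between 7.46 and 9.25. The means were 5.97 ± 2.57 in resistant and 10.11 ± 1.86 in sensitive lines (SD, n = 5 each), a difference of -4.14 (limma, SE 1.28, 95% CI -7.00 to -1.28, unadjusted p = 0.00913, adjusted p = 0.591). A two-sided exact permutation test of CD58 alone gave p = 0.0397, where 0.00794 is the smallest it can give. The other CD58-dim lines, HBL-1 and OCI-Ly3, were of intermediate class for H, and so were NU-DUL-1 and MC-116, at 9.24 and 10.21. The difference between the diseases was 3.03 (SE 1.55, unadjusted p = 0.0687, adjusted p = 0.60), in a fit that called 0.0275% of all probe-sets, so a larger size in DLBCL lines was not shown.

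Per 100 units of AUC0 for H, CD58 changed by -1.06 in MM lines (SE 0.49, unadjusted p = 0.0517, adjusted p = 0.999) and by -3.73 in DLBCL lines (SE 1.32, unadjusted p = 0.0136, adjusted p = 0.883), in fits that called 0.00183% and 0% of all probe-sets. The correlation with AUC0 in MM lines was -0.540 (permutation p = 0.0701, adjusted over 6 pairs 0.318) with rho of -0.650 (permutation p = 0.0254, adjusted 0.153), and r became -0.172 without the 2 lines farthest from the median AUC0, MM1S and MOLP-8, so it rested on these. Leaving out single lines gave r between -0.728 and -0.381. In the 10 DLBCL lines above the gap r was -0.545 (permutation p = 0.106, adjusted 0.318) and rho -0.515, with r of -0.546 without the 2 lines farthest from the median AUC0.

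**Figure D5:**
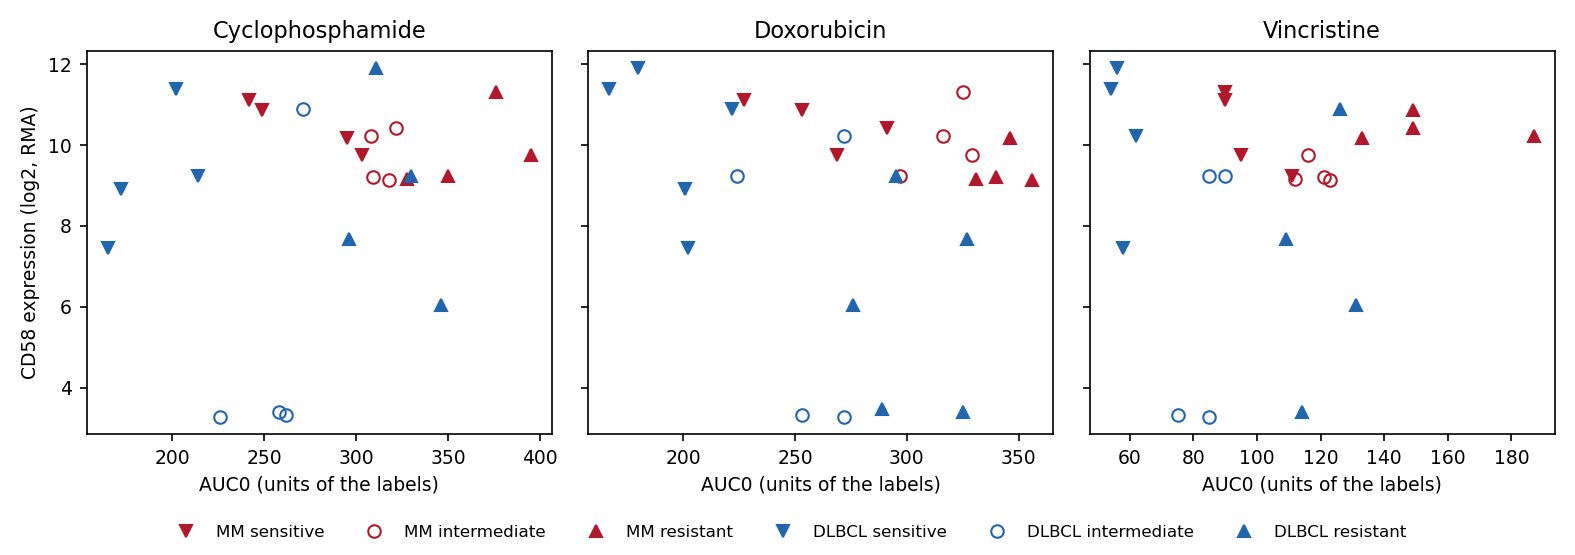
CD58 expression (log2, RMA) against AUC0 of cyclophosphamide, doxorubicin and vincristine, 1 panel per drug and 1 point per cell line, with the disease by colour and the class by symbol. Lines with CD58 at or below 6.05, a cut-off taken after the values were seen, are of the intermediate or resistant class where tested. HBL-1 and OCI-Ly3 are intermediate for each drug, and SU-DHL-4 has no AUC0 for cyclophosphamide or vincristine. For cyclophosphamide the DLBCL classes differ in CD58 by -0.53 (exact permutation p = 0.80).

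For O in MM lines CD58 differed between the classes by 0.06 (95% CI -1.05 to 1.18), with 0% of all probe-sets called. In DLBCL lines it was 3.41 (OCI-Ly7), 6.05 (DB), 7.68 (RIVA) and 10.88 (SU-DHL-8) in O-resistant lines, against 7.46 (SU-DHL-5), 10.21 (MC-116), 11.40 (OCI-Ly19) and 11.90 (FARAGE) in O-sensitive ones. The difference of -3.24 (limma, SE 1.63, 95% CI -7.01 to 0.53, adjusted p = 0.990) did not pass, and the fit called 0.00366% of all probe-sets. For C the differences in CD58 were -0.61 in MM lines (95% CI -1.84 to 0.63) and -0.53 in DLBCL lines (95% CI -3.58 to 2.51), with 0% called in each disease and 0.0256% called in the test between the diseases. The DLBCL classes compared for C held none of the lines with the least CD58. HBL-1, OCI-Ly3 and OCI-Ly7 were intermediate for C, and SU-DHL-4 was not tested. For H, OCI-Ly7 and SU-DHL-4 were among the resistant lines, and for O so was OCI-Ly7. The sizes for the 3 drugs thus come from different lines, and the difference between drugs was not tested. The correlations of CD58 with AUC0 were -0.292 in MM lines and -0.0976 in DLBCL lines above the gap for C, and -0.00959 and -0.491 for O, none of them past the adjusted threshold. The DLBCL lines used were 9 for C and 9 for O.

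The slopes per 100 units of AUC0 gave no call among the members either. For C they called 0% of all probe-sets, and CD58 changed by -0.51 in MM lines (SE 0.50) and by -0.01 in DLBCL lines (SE 1.53), with the largest member slopes those of CD70 in MM lines (0.77, unadjusted p = 0.337) and CD86 in DLBCL lines (1.52, unadjusted p = 0.116). For O they called 0%, and CD58 changed by -0.03 in MM lines (SE 0.82) and by -3.72 in DLBCL lines (SE 3.20), the largest member slope there, while in MM lines that of CD86 was largest (-2.96, unadjusted p = 0.123). For H the largest in MM lines was also that of CD86 (-1.93, unadjusted p = 0.160). At an unadjusted p under 0.05, 4 of 31 member probe-sets passed for H in MM lines and 9 of 31 in DLBCL lines, beside 4.17% and 5.50% of all probe-sets. None passed for C or O in MM lines, beside 3.44% and 4.66%, and 2 for C and 4 for O passed in DLBCL lines, beside 4.95% and 4.30%. A gene can hold several of these probe-sets, so the counts are not of independent transcripts. Of the 10 main probe-sets, 0 passed for H in MM lines and 3 in DLBCL lines. In DLBCL lines 0 of them passed for C and 2 for O.

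CD86 was the ligand of largest class difference for C in DLBCL lines. It was 9.14 (DB), 9.23 (RIVA), 9.35 (FARAGE) and 9.48 (U2932) in resistant lines, against 5.07 (NU-DUL-1), 5.44 (NU-DHL-1), 5.57 (OCI-Ly19) and 9.29 (SU-DHL-5) in sensitive lines. The difference of 2.95 (limma, SE 0.88, 95% CI 0.92 to 4.99, unadjusted p = 0.0103) had an adjusted p of 0.997. The exact permutation p was 0.0857. Of the sensitive lines, SU-DHL-5 alone reached the range of the resistant ones. Without it the difference was 3.94 with an adjusted p of 0.00203 (limma), in a fit that called 3 of all probe-sets. This was 1 of 8 fits that each left out a line, and it dropped the line that goes against the difference. It is therefore not read as a result. In all, 4 of 31 member probe-sets passed at an unadjusted p under 0.05 in that comparison, beside 4.29% of all probe-sets. Only 1 of the 4 was a main probe-set. For H, CD86 differed by -1.14 in MM lines (limma, unadjusted p = 0.242) and by 2.56 in DLBCL lines (unadjusted p = 0.0247, adjusted p = 0.621), and the difference of these was -3.70 (SE 1.42, unadjusted p = 0.0192, adjusted p = 0.470). For O in MM lines it differed by -2.54 (limma, SE 1.19, unadjusted p = 0.0664, exact permutation p = 0.0571), with 2 of 31 member probe-sets at an unadjusted p under 0.05 beside 3.07% of all probe-sets. Of these 2, 1 was a main probe-set.

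CD48 had the largest difference in MM lines for C (-2.48, unadjusted p = 0.116) and for H (-2.63, unadjusted p = 0.0876), and KMS-12-BM, at 6.15, was a resistant line in both. The resistant lines for H had 6.15 (KMS-12-BM), 9.97 (KMS-11), 11.45 (KMS-12-PE) and 13.01 (KMM-1), against 11.95 (MOLP-8), 12.39 (MM1S), 13.07 (AMO-1) and 13.69 (NCI-H929) in sensitive lines. For C in MM lines 0 of 31 member probe-sets had an unadjusted p under 0.05, beside 4.13% of all probe-sets.

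In 3 of the 60 comparisons of a main probe-set between classes, picked out after the values were seen, the resistant and the sensitive lines did not overlap. Of all probe-sets, the shares without overlap in either direction were, in MM lines, 2.67% between the classes for C, 4.46% between those for H and 1.87% between those for O, and in DLBCL lines 2.6%, 1.35% and 2.37% in the same order of drugs, so a count of 3 is not read as a result about the ligands. TNFRSF14 was 5.91 (RIVA), 5.98 (DB), 6.01 (OCI-Ly7), 6.37 (U2932) and 6.43 (SU-DHL-4) in H-resistant DLBCL lines, against 6.69 (NU-DHL-1), 6.93 (OCI-Ly19), 7.18 (SU-DHL-5), 7.66 (SU-DHL-8) and 8.45 (FARAGE) in H-sensitive ones, and all 5 resistant lines were below the bound. The difference was -1.24 (limma, SE 0.30, unadjusted p = 0.00224, adjusted p = 0.521), and 0.751% of all probe-sets were lower in resistant lines without overlap. In MM lines TNFRSF14 differed by -0.86 for H (limma, SE 0.37, unadjusted p = 0.0512), with overlap. CD70 was 8.90 (RIVA), 9.12 (SU-DHL-8), 9.29 (DB) and 10.33 (OCI-Ly7) in O-resistant DLBCL lines, against 10.62 (OCI-Ly19), 10.83 (SU-DHL-5), 11.21 (MC-116) and 11.48 (FARAGE) in O-sensitive ones. Its difference was -1.63 (limma, SE 0.33, unadjusted p = 0.00136, adjusted p = 0.990), beside 1.05% of all probe-sets lower without overlap. The third was CD274 in MM lines for O, between 4.03 and 4.23 in resistant and between 4.38 and 5.09 in sensitive lines, all of them dim, beside 1.07%. In all 3 the ligand was lower in the resistant lines, and none passed the adjusted threshold.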

How the data were processed

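RNA of 26 untreated cell lines had been hybridised, each line to its own Affymetrix HG-U133 Plus 2.0 array. The deposited values are log2 expression, which the authors computed from the scanner files by RMA with the Bioconductor package affy in R 3.0.1, per the submitters' processing notes. RMA subtracts background, makes the arrays' distributions equal and summarises probes, so a shift shared by all genes of a line would not be seen and low levels are compressed. The number of lines limits the precision.

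Control probe-sets (62) were left out and 54613 tested, of which 41091 carried 1 gene symbol, 1801 several and 11721 none in the platform annotation. Groups, AUC0 and classes were read from the labels. The labels tag the doxorubicin class as cyclophosphamide a second time, and it was read by its place after the doxorubicin AUC0. No label gives a scan date or batch. Fits used limma 3.58.1 in R 4.3.3 (lmFit and eBayes) on the deposited values, with Benjamini-Hochberg adjustment over all probe-sets tested and a threshold of 0.05. MM was compared with DLBCL over all lines, and classes and AUC0 slopes were fitted within each disease, without intermediate lines for the classes. The difference between diseases was an interaction term. Each gene's main probe-set was that of largest SD over the DLBCL lines, and the member of largest size of difference in each drug comparison, with CD58, was named. Class differences of single genes were tested by two-sided exact permutation. Correlations were tested by 100000 permutations, or by exact permutation where only 9 lines were used (Python 3.11.15, scipy 1.17.1). They were adjusted over 6 pairs of drug and disease and 18 pairs of ligand and disease. In DLBCL lines the correlations used only the lines above the CD58 gap. The fits were tested on simulated data. The members and gene lists were chosen with earlier results of these data known. Alternatives were 1 probe-set per gene (33297 tested), a filter on dim probe-sets (34581 kept), centring of arrays, a trended robust fit, leaving out AMO-1 and MC-116, KMS-12-PE or each line in turn, 1 fit over both diseases and intermediate lines kept as a class.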

Additional observations from a re-analysis of the deposited data

Results flagged for a closer look

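In 28 groups of 4 to 10 lines, 1 line was compared with the rest of its group by the gap to its nearest neighbour over the group's range, and 3 lines stood apart. Chance sets about 1 in 20 such groups apart. CD58 in KMM-1 was 10.18, above the other 3 MM lines resistant to doxorubicin (9.14 to 9.22), with a gap of 0.929 of the range. CD86 in SU-DHL-5 was 9.29, above the other 3 DLBCL lines sensitive to cyclophosphamide (5.07 to 5.57), with a gap of 0.882 of the range. CD86 in KMS-12-BM was 5.53, above the other 3 MM lines resistant to doxorubicin (3.86 to 4.08), with a gap of 0.871 of the range, although all 4 were dim.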

How the results depend on the processing

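No paired analysis was possible because no label pairs an MM line with a DLBCL line. Of the 10 members, 2 were called between MM and DLBCL lines, and 2 to 3 when each line was left out in turn, with CD58 the added one without FARAGE. The probe-sets called numbered 6285, 3483 with 1 probe-set per gene, where fewer were tested, and 5499 to 6442 without each line in turn. For PDCD1LG2 the difference of -0.02 became 0.049 without MC-116 and AMO-1 and ranged between -0.053 and 0.021 without single lines. That of CD70 ranged between -0.0048 and 0.32. No member was called in a drug comparison under any alternative, except that without SU-DHL-5 the count for C in DLBCL lines was 1 (CD86), and otherwise 0. Differences near 0 changed sign when single lines were left out, and the cause was not tested. For CD58 and C they ranged between -1.59 and 0.36 for the classes in DLBCL lines, between -0.72 and 0.57 for the slope in DLBCL lines, between -1.09 and 0.21 for the slope of MM minus DLBCL, and between -0.96 and 0.99 for the classes of MM minus DLBCL. For CD58 and O in MM lines they ranged between -0.31 and 0.39 for the classes and between -0.36 and 0.58 for the slope. The correlation of CD58 with AUC0 ranged between -0.321 and 0.283 for C in DLBCL lines and between -0.118 and 0.228 for O in MM lines. In MM lines its correlation with CD80 ranged between -0.0642 and 0.154, with CD86 between -0.116 and 0.522, with ICOSLG between -0.221 and 0.272, with CD70 between -0.0648 and 0.299 and with CD274 between -0.145 and 0.486, and in DLBCL lines that with CD47 between -0.0289 and 0.249. CD58 for H stayed negative without each line in turn in both diseases, between -1.37 and -0.92 in MM lines and between -4.96 and -3.50 in DLBCL lines. Groups of 4 or 5 lines limit what these fits can call, and probe-set affinity limits what dim values can show.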
